A study of Rattus norvegicus with 70 samples.

Results

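Visceral adipose tissue (VAT) of 11 male Sprague-Dawley rats was profiled by RNA sequencing after 28 days of nose-only inhalation, 5 libraries from rats that inhaled PCB 52 and 6 from sham rats. The 11 were taken from the 70 libraries of the series by 2 labels, the tissue VAT and an odd title number, and the treatment label then set the group: PCB 52 for rats 13, 15, 17, 19 and 23, and sham for rats 1, 3, 5, 7, 9 and 11. All of these animals belong to an outbred laboratory stock with no engineered allele, and all are labelled male. Exposure began at 39 days of age and ran 4 h a day, with filtered air passed at 12 L/min over glass beads coated with PCB 52. The air given to sham rats is not described in the labels. The fat pad that was dissected is not named either, and reading the title numbers as rat numbers is an assumption. The study asks which genes of adolescent rat fat respond to this chlorinated biphenyl.

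PCB 52 is a biphenyl with a chlorine in the ortho position of each ring, a shape that keeps it from binding the aryl hydrocarbon receptor well. Visceral fat is built of lipid-filled adipocytes, with progenitors and fibroblasts, vessels, macrophages and lymphocytes between them. A sheet of mesothelial cells covers its surface.

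Values below are counts per 1000000 (CPM) of the adjusted library size, and fold changes are log2 of PCB 52 over sham with their standard error (SE). Totals were 7103395 to 7821120 counts in PCB 52 libraries and 6478976 to 8412797 in sham libraries, so a count of 0 allowed up to 0.384 to 0.422 CPM in PCB 52 rats and 0.357 to 0.463 CPM in sham rats, as counting error alone. Adipoq, the adipocyte hormone adiponectin, was at 6242 to 8208 CPM in PCB 52 rats and 4156 to 7935 CPM in sham rats. Ucp1, the heat-producing uncoupling protein of brown fat, had at most 4 counts in any library. These values mark white fat, and whether the tissue was visceral rather than subcutaneous was not tested.

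Several libraries stood apart. PCB 52 rat 13 had a count of 0 for 301 of 308 expressed genes of chromosome X, 268 of 406 of chromosome 9 and 2 of 2 of chromosome Y, but for 6 of 10059 on the other chromosomes. Its values on chromosomes 9, X and Y, the mitochondrion and unplaced sequence were therefore treated as missing, and genes there were tested on the other 10 libraries. Genes of chromosome 9 that did have reads in rat 13 were set aside with the rest. Transcripts of the male reproductive tract were present in PCB 52 rats 13 and 23 and in sham rat 11: Ces5a, a secreted carboxylesterase of the epididymis chosen after its values were seen, was at 2359, 0, 0.145, 0 and 339 CPM in PCB 52 rats 13, 15, 17, 19 and 23, against 0 to 2881 CPM in sham rats, where the highest was rat 11. The male tract list, 19 genes outside the chromosomes that rat 13 lacks, summed to 711, 9.43, 9.15, 17.5 and 558 CPM in those PCB 52 rats in the same order and to 10.2 to 2173 CPM in sham rats. Ribosomal protein genes took 7.10% of the reads counted in sham rat 7, where each of the other 10 libraries gave them 2.44% to 3.03%. What part these features had in any result was not tested. Of the 36 gene lists followed, 27 had a median that moved by over 1.5 times or changed sign when PCB 52 rat 13, sham rat 7 or sham rat 11 was left out, and values without these libraries are given for the lists the text describes in most detail.

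**Figure D1:**
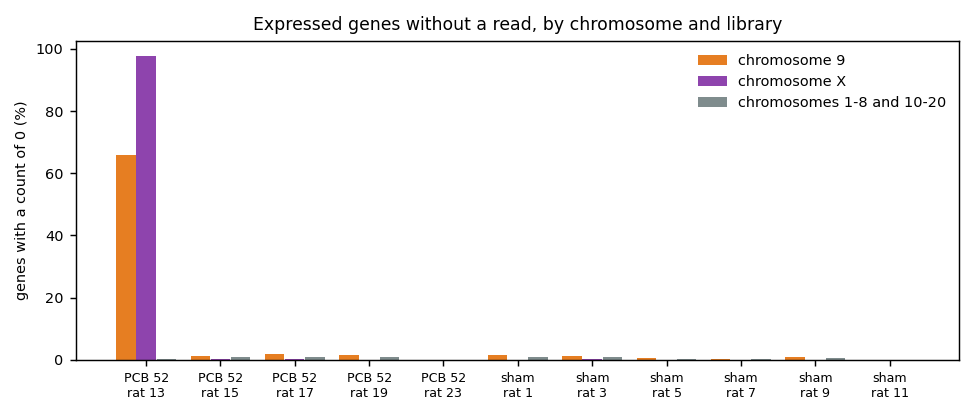
Share of expressed genes with a count of 0 (vertical axis, %) in each library (horizontal axis, 5 PCB 52 and 6 sham), with bars for chromosome 9, chromosome X and chromosomes 1 to 8 and 10 to 20. PCB 52 rat 13 lacks reads for 301 of 308 genes of chromosome X and 268 of 406 of chromosome 9, while its other chromosomes are covered.

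Of 11368 genes tested, none passed an adjusted p of 0.05 (0%, edgeR quasi-likelihood test with Benjamini-Hochberg adjustment), in either direction. At an unadjusted p under 0.05 there were 780 genes (6.86%), with 309 higher (2.72%) and 471 lower (4.14%) after PCB 52. Fold changes were positive in 46.6% and negative in 53.4% of all genes tested. DESeq2 called 7 genes and limma voom called 1. The groups did not overlap in 43 genes that were higher (0.378%) and 40 that were lower (0.352%). Without PCB 52 rat 13 the unadjusted count was 1226, without sham rat 11 it was 1172, and without both it was 1400, and the adjusted count stayed at 0 each time. The unadjusted count was 1263 without sham rat 1, and 489 to 760 when 1 of the other libraries was left out. List counts given below for such fits stand beside these totals rather than beside 780. Without sham rat 1, 8 genes passed: Arhgap28 and Rcan2 were higher, and Slc29a1, Cldn11, Ngef, Mfap2, Ptx3 and Cpz were lower. Each library was read as a separate rat; cages and dissection days are not given in the labels, and the p-values measure only the spread between these libraries.

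The genes of smallest p were followed one by one, 12 in each direction, although none passed the adjusted threshold with all libraries. Arhgap28, a GTPase-activating protein (NCBI gene 301709, chromosome 9), came closest, with 15.8, 17.1, 19.7 and 14.5 CPM in PCB 52 rats 15, 17, 19 and 23, against 5.08 to 8.38 CPM with a median of 6.22 CPM in sham rats. The groups did not overlap, and every one of the 4 PCB 52 rats with a value lay above all 6 sham rats. Its log2 fold change was 1.34 (SE 0.166, adjusted p = 0.0510 by edgeR). DESeq2 gave an adjusted p of 2.68e-08 and limma voom 0.0379. With 1 library left out at a time, edgeR gave from 0.0357, without sham rat 1, to 0.426, without PCB 52 rat 19. It gave 0.112 without sham rat 11. With the missing reads of rat 13 counted as 0, the fold change was 1.02 with an adjusted p of 0.757.

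Slc35g3, a predicted membrane transporter (NCBI gene 691976, chromosome 10), was at 2.76, 2.07, 4.07, 4.95 and 3.49 CPM in PCB 52 rats 13, 15, 17, 19 and 23, against 0.679 to 1.90 CPM with a median of 0.844 CPM in sham rats. The highest sham library was rat 11, and it too lay below the lowest PCB 52 library. The log2 fold change was 1.77 (SE 0.332, adjusted p = 0.685 by edgeR), and DESeq2 gave an adjusted p of 0.0132. Prkaa2, a catalytic subunit of the energy sensor AMP-activated protein kinase (NCBI gene 78975, chromosome 5), had 5.76, 4.26, 4.65, 4.43 and 3.22 CPM in PCB 52 rats 13, 15, 17, 19 and 23, against 1.71 to 2.93 CPM with a median of 1.93 CPM in sham rats. Both groups stayed apart at these low levels, with a log2 fold change of 1.07 (SE 0.222, adjusted p = 0.685 by edgeR).

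Magt1, a magnesium transporter that also serves protein glycosylation (NCBI gene 116967, chromosome X), reached 46.0, 51.8, 46.8 and 51.1 CPM in PCB 52 rats 15, 17, 19 and 23, against 27.5 to 37.4 CPM with a median of 35.5 CPM in sham rats. Here again no sham rat came up to a PCB 52 rat, and the log2 fold change was 0.55 (SE 0.12). Other higher genes on chromosomes 9 and X were St8sia4, a sialyltransferase (0.84, SE 0.197), Dock11, an activator of the GTPase Cdc42 (0.66, SE 0.164), and Heph, the ferroxidase hephaestin (0.47, SE 0.117). Chrdl1, a secreted antagonist of bone morphogenetic proteins, belongs with them: it had 275, 283, 331 and 291 CPM in PCB 52 rats 15, 17, 19 and 23, against 117 to 246 CPM with a median of 172 CPM in sham rats. None of these genes overlapped between the groups, but each had an adjusted p of 0.685 by edgeR. Rcan2, a regulator of the phosphatase calcineurin, had 73.1, 83.5, 90.1 and 71.3 CPM in PCB 52 rats 15, 17, 19 and 23, against 40.3 to 74.8 CPM with a median of 44.1 CPM in sham rats. The sham value of 74.8 CPM was rat 1, inside the PCB 52 range, and the other 5 sham rats were at 40.3 to 47.6 CPM. The Rcan2 fold change was 0.71, or 0.57 with the reads of PCB 52 rat 13 counted. That rat thus lay below the mean of the other PCB 52 rats, towards the sham rats, and its own value is not given here. Ppp2r2c, a regulatory subunit of a protein phosphatase, had a log2 fold change of 2.18 (SE 0.552) at 1.56 to 7.29 CPM in PCB 52 rats and 0.261 to 2.34 CPM in sham rats, and Prepl and Sntb1 had fold changes of 0.54 and 0.57.

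Among the lower genes, Ngef, a guanine nucleotide exchange factor (NCBI gene 246217, chromosome 9), was at 18.2, 17.7, 19.7 and 17.3 CPM in PCB 52 rats 15, 17, 19 and 23, against 24.3 to 36.5 CPM with a median of 31.5 CPM in sham rats. All 4 PCB 52 values lay below all 6 sham values, and the log2 fold change was -0.78 (SE 0.128, adjusted p = 0.376 by edgeR). Cldn11, a claudin of tight junctions (NCBI gene 84588, chromosome 2), had 2.52, 0.775, 0.581, 0.521 and 1.47 CPM in PCB 52 rats 13, 15, 17, 19 and 23, against 1.49 to 31.5 CPM with a median of 15.1 CPM in sham rats. The lowest sham library was rat 1, which lay among the PCB 52 rats, and the fold change of -3.67 (SE 0.708) had an adjusted p of 0.685 with all libraries and 0.0357 without that rat.

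Slc29a1, an equilibrative nucleoside transporter (NCBI gene 63997, chromosome 9), showed the same arrangement, with 14.9, 11.2, 14.1 and 14.7 CPM in PCB 52 rats 15, 17, 19 and 23, against 14.5 to 45.7 CPM with a median of 32.9 CPM in sham rats. Of the sham rats, only rat 1, at 14.5 CPM, reached into the range of these PCB 52 rats. The Slc29a1 fold change was -1.24, or -0.95 with the reads of PCB 52 rat 13 counted. That rat thus lay above the mean of the other PCB 52 rats, towards the sham rats, and its own value is not given here. Galnt16, an enzyme that starts mucin-type O-glycans (NCBI gene 362760, chromosome 6), was at 31.9, 36.7, 35.6, 35.2 and 26.4 CPM in PCB 52 rats 13, 15, 17, 19 and 23, against 39.4 to 97.9 CPM with a median of 71.6 CPM in sham rats. The groups did not overlap, though sham rats 1 and 11 were closest to the PCB 52 rats, and the log2 fold change was -1.04 (SE 0.231, adjusted p = 0.685 by edgeR).

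Nr1h4, the bile acid receptor FXR, was low in both groups, at 0.841, 0.904, 1.02, 0.651 and 1.34 CPM in PCB 52 rats 13, 15, 17, 19 and 23, against 0.95 to 4.69 CPM with a median of 2.85 CPM in sham rats. Its fold change was -1.55 (SE 0.373), and sham rat 1 again overlapped the PCB 52 rats. Gatm, which makes the precursor of creatine, had 16.2, 11.8, 9.44, 9.25 and 11.4 CPM in PCB 52 rats 13, 15, 17, 19 and 23, against 11.4 to 31.8 CPM with a median of 23.2 CPM in sham rats, and a fold change of -0.94 (SE 0.244). Bmyc, a short relative of Myc, did not overlap (-0.72, SE 0.18), nor did Ldb2, a cofactor of LIM-domain proteins (-0.59, SE 0.144). Myo7b, a myosin of microvilli, was at 0 to 1.07 CPM in PCB 52 rats and 1.09 to 4.11 CPM in sham rats, near the counting floor in PCB 52 rats. The remaining ones were Tmem45a (-1.04), Gpsm3 (-0.63) and Rab3il1 (-0.49).

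**Figure D2:**
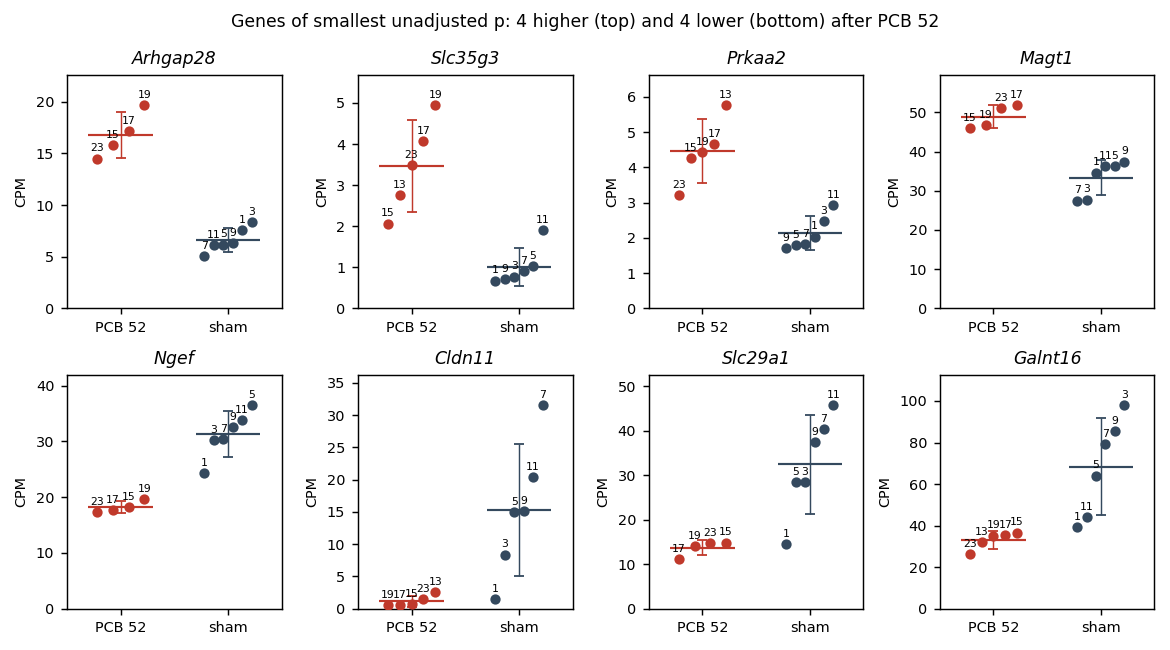
CPM (vertical axis, linear from 0) of the 4 higher and 4 lower genes of smallest p in each PCB 52 and sham library. Points are labelled by rat number, with the mean (line) and SD (bar). PCB 52 rat 13 was left out for genes of chromosomes 9 and X. Sham rat 1 lies with the PCB 52 rats for Cldn11 and Slc29a1 and is the sham rat nearest to them for Ngef and Galnt16.

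All 24 genes kept their direction under every alternative in which they were tested. In 17 of the 24 the sham library nearest to the PCB 52 mean was rat 1, in 3 it was rat 11, and in none was it rat 7. Since these genes were picked for small p in this contrast, the 9 higher and 5 lower ones without overlap carry no support of their own. Of the 24, 9 lie on chromosome 9 or X. Among the 796 genes tested on 10 libraries, those of chromosomes 9, X and Y, the mitochondrion and unplaced sequence, 85 (10.7%) had an unadjusted p under 0.05, against 695 of 10572 (6.57%) tested on 11. These 2 shares come from different libraries, so they do not compare the chromosomes alone. With rat 13 left out for every gene, 1226 of 11442 genes over all chromosomes were at that level. Without PCB 52 rat 13 for every gene the adjusted p of the 24 ran from 0.0514 to 0.340, without sham rat 11 from 0.112 to 0.439, and without both from 0.112 to 0.295 (edgeR). Without PCB 52 rat 19 the adjusted p was 0.426 for Arhgap28, 0.865 for Ngef and 0.935 for the rest of the 24 (edgeR).

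Mesothelial genes were the list with the highest median. Of 12 tested, 11 had a positive fold change, against 46.6% of all genes, and 2 of them an unadjusted p under 0.05, against 2.72%, and the list's median log2 fold change was 1.04, against -0.02 over all genes tested. Cldn15, a claudin of ion-conducting junctions (NCBI gene 304388, chromosome 12), was at 8.29, 16.4, 29.6, 22.5 and 18.5 CPM in PCB 52 rats 13, 15, 17, 19 and 23, against 3.41 to 17.2 CPM with a median of 6.76 CPM in sham rats. Sham rat 1 had the 17.2 CPM, and PCB 52 rat 13 lay among the other sham rats, with a fold change of 1.28 (SE 0.415, unadjusted p = 0.0098, adjusted p = 0.685 by edgeR). Rspo1, a secreted amplifier of Wnt signals, had a fold change of 0.79 (SE 0.299), and Gpm6a, a membrane glycoprotein, one of 1.65 (SE 0.768; 2.66 without sham rat 1).

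Msln, which encodes the surface protein mesothelin that defines the cell type and is named here after its values were seen, had 90.0, 329, 393, 398 and 273 CPM in PCB 52 rats 13, 15, 17, 19 and 23, against 295, 18.6, 20.8, 4.43, 87.4 and 91.8 CPM in sham rats 1, 3, 5, 7, 9 and 11. PCB 52 rat 13 lay among the sham rats, and sham rat 1 lay among the PCB 52 rats. Its fold change was 1.78 (SE 0.876, adjusted p = 0.703 by edgeR). Cdh1, an adhesion protein of epithelia, was the member with a negative value, -1.18, and it was highest in the libraries with male tract transcripts, at 119 CPM in PCB 52 rat 13 and 365 CPM in sham rat 11. Summed over 13 genes, the list ran from 680.0 to 816 CPM in PCB 52 rats and from 114 to 1039.8 CPM in sham rats. Sham rats 3, 5, 7 and 9 were at 114 to 286 CPM. PCB 52 rat 13, at 708 CPM, and sham rat 11, at 1039.8 CPM, also had the highest epithelium and mammary gland sums, 638 and 1163 CPM. Single markers differed from the sum in rat 13, where Rspo1 was at 25.8 CPM, against 59.3 to 70.7 CPM in the other PCB 52 rats. What part epithelial transcripts had in these sums was not tested. The median was 1.22 without PCB 52 rat 13, 1.61 without sham rat 11, 1.24 without both, and 1.33 without sham rat 1. Its lowest values were 0.80 with no filter on low counts, 0.90 without PCB 52 rat 17, 0.91 without sham rat 3 and 0.93 without sham rat 5. The count of higher members at an unadjusted p under 0.05 was 5 without PCB 52 rat 13, 3 without sham rat 11 and 6 without both. It was 7 without sham rat 1, 1 without PCB 52 rat 19, 6 in DESeq2 and 7 in limma voom. Over all genes, in either direction, the count was 780 with all libraries, 1226 without PCB 52 rat 13 and 1172 without sham rat 11. It was 1400 without both, 1263 without sham rat 1, 489 without PCB 52 rat 19, 799 in DESeq2 and 776 in limma voom. In bulk tissue, a change in the number of cells of a type and a change in their RNA per cell cannot be told apart.

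**Figure D3:**
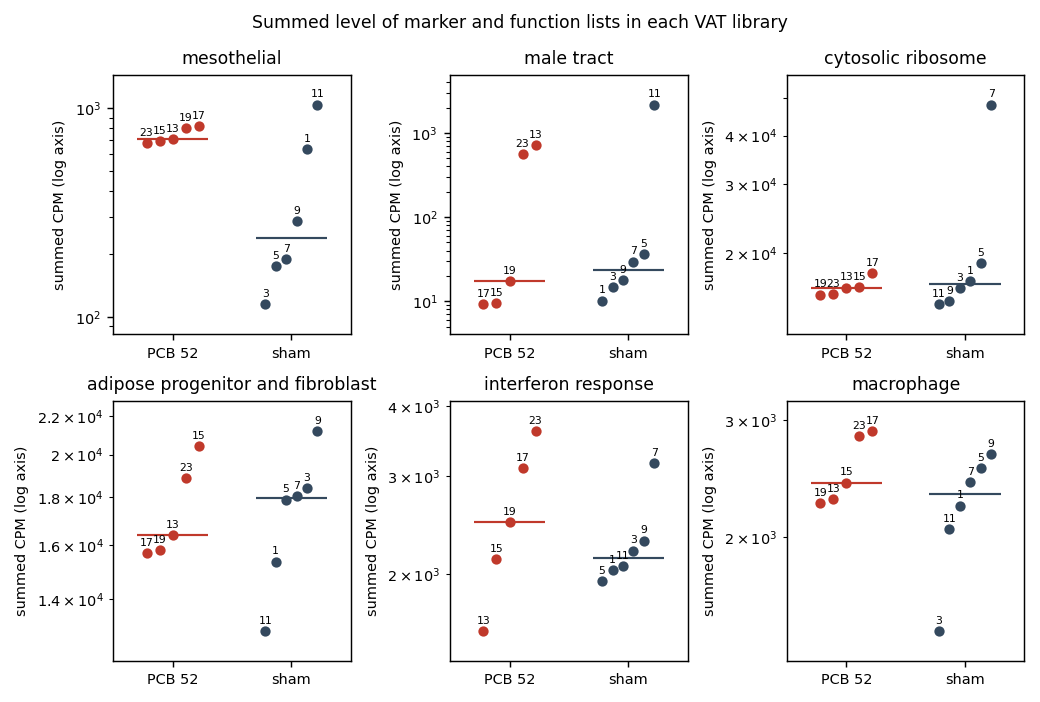
Summed CPM (vertical axes, logarithmic) of 6 gene lists in each PCB 52 and sham library, labelled by rat number, with the group median as a line. Mesothelial sums are 680 to 816 CPM in PCB 52 rats and 114 to 1040 CPM in sham rats, of which rats 1 and 11 are the high ones; male tract sums are high in PCB 52 rats 13 and 23 and sham rat 11; the ribosome sum is high in sham rat 7.

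Most interferon response genes had a positive fold change. When interferon binds its receptor, a complex of transcription factors forms and binds promoters that carry the interferon-stimulated response element, searched for here as 2 copies of GAAA with 2 bases of any kind between them, on either strand. This binding switches on antiviral genes such as those of the Oas and Mx families. Of 33 members tested, 28 had a positive fold change, against 46.6% of all genes. Of these, 6 had an unadjusted p under 0.05, against 2.72% of all genes. No member was lower at that level, against 4.14% of all genes. The list's median was 0.30. None of the 33 passed the adjusted threshold.

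Oas2, a sensor of double-stranded RNA (NCBI gene 363938, chromosome 12), was at 6.97, 14.3, 21.3, 20.1 and 29.6 CPM in PCB 52 rats 13, 15, 17, 19 and 23, against 2.87 to 10.3 CPM with a median of 6.92 CPM in sham rats. Rats 15, 17, 19 and 23 lay above all sham rats and rat 13 among them, with a fold change of 1.496 (SE 0.41, adjusted p = 0.685 by edgeR). Mx2, a dynamin-like antiviral GTPase, had 59.2, 90.4, 193, 126 and 223 CPM in PCB 52 rats 13, 15, 17, 19 and 23, against 57.4 to 102 CPM with a median of 70.5 CPM in sham rats, so rats 17, 19 and 23 were above the sham range and rats 13 and 15 within it. Isg15 and Ifit2, equally typical targets that were picked here as contrasts after their values were seen, had fold changes of 0.03 (SE 0.382) and 0.05 (SE 0.16).

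The 4 members of smallest p whose promoter entry held the motif are shown to let the response element be read beside the values; RefSeq sequences of build GRCr8 were used, each printed 5′ to 3′ on the gene's strand with the match and 30 bases on either side, and capitals mark the match. Rsad2 is from chr6:48788228-48788297, Ifih1 from chr3:67683988-67684057, Oasl2 from chr12:47383297-47383366 and Oas1b from chr12:41395866-41395941, all on the minus strand.
Rsad2: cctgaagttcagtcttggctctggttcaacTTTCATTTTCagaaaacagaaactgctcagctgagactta
Ifih1: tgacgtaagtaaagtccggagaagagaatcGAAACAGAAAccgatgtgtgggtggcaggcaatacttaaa
Oasl2: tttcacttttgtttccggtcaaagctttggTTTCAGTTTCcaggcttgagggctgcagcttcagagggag
Oas1b: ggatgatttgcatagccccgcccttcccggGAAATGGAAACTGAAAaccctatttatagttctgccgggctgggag
The match begins 147 bases before the annotated start in Rsad2, 59 in Ifih1 and 151 in Oasl2, and Oas1b holds 2 overlapping matches, 59 and 53 bases before it. Over the 250 bases before the start and on both strands, 15 of 26 tested interferon members with an entry held the motif (57.7%), against 249 of 9268 genes tested (2.69%) and 1140 of all 33469 promoters (3.41%). Of the 6 members with an unadjusted p under 0.05, only Rsad2 held it, Irf9 and Oasl did not, and the other 3, Oas2 and Mx2 among them, have no entry. Rsad2, which blocks viral RNA synthesis, had 13.8, 20.3, 19.8, 20.7 and 43.4 CPM in PCB 52 rats 13, 15, 17, 19 and 23, against 13.2 to 21.3 CPM with a median of 14.2 CPM in sham rats. Only rat 23 exceeded the sham range. Ifih1, another RNA sensor, had 21.9, 36.9, 42.8, 38.9 and 47.9 CPM in PCB 52 rats 13, 15, 17, 19 and 23, against 23.8 to 33.6 CPM with a median of 29.4 CPM in sham rats, so 4 PCB 52 rats lay above the sham rats and rat 13 below them. Oasl2 and Oas1b, both of the Oas family, had fold changes of 0.64 (SE 0.304) and 0.55 (SE 0.269).

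Rat 13 was the PCB 52 library with the lowest interferon sum: the members together gave 1581, 2128, 3094, 2475 and 3612 CPM in PCB 52 rats 13, 15, 17, 19 and 23, against 1941 to 3159 CPM in sham rats. Rat 23, one of the libraries with male tract transcripts, had the highest sum, and without rat 23 alone the median was 0.07, with 23 of 33 members positive and 2 of them at an unadjusted p under 0.05. Without rats 13 and 23 and sham rat 11 the median was 0.20, with 8 members at that level. The median was 0.39 without PCB 52 rat 13, with 30 of 34 members positive and 15 of them at an unadjusted p under 0.05. It was 0.33 without sham rat 11 (28 of 33, 6) and 0.43 without both (28 of 33, 14). Over all genes, in either direction, the count at that level was 1226, 1172 and 1400 in the same order. It was 549 without PCB 52 rat 23 and 780 with all libraries.

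Macrophage genes had a median of 0.16, with 16 of 24 members positive, against 46.6% of all genes, and 3 of them at an unadjusted p under 0.05, against 2.72%. The median was 0.06 without PCB 52 rat 17 and 0.07 without sham rat 3, and the count was 1 without sham rat 3, PCB 52 rat 15 or PCB 52 rat 23. Adgre1, the surface marker F4/80 (NCBI gene 316137, chromosome 9), had 41.5, 42.4, 33.2 and 42.9 CPM in PCB 52 rats 15, 17, 19 and 23, against 15.7 to 34.0 CPM with a median of 24.5 CPM in sham rats. Rats 15, 17 and 23 lay above every sham rat and rat 19 just below the highest. The Adgre1 fold change was 0.70, or 0.61 with the reads of PCB 52 rat 13 counted, so that rat lay below the mean of the other PCB 52 rats. Itgam, an integrin of myeloid cells, and Msr1, a scavenger receptor, had fold changes of 0.75 (SE 0.319) and 0.79 (SE 0.359), and no member passed the adjusted threshold. The sums overlapped, at 2246 to 2891 CPM in PCB 52 rats and 1443 to 2663 CPM in sham rats. T and NK cell genes had a median of -0.24, with 3 of 12 positive, against 46.6% of all genes. Of the 12, 2 were lower at an unadjusted p under 0.05, against 4.14%. Their sums overlapped, at 124 to 162 CPM (median 138) in PCB 52 rats and 96.8 to 177 CPM (median 132) in sham rats. The list's median was 0.0007 without PCB 52 rat 13 and sham rats 7 and 11. Its leading member, Ccl5, is described with the chemokines. Nkg7, a protein of cytotoxic granules, had a fold change of -0.84 (SE 0.374), or -0.42 without sham rat 7, and Cd8a one of -0.46 (SE 0.277).

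Stromal lists had negative medians. The adipose progenitor and fibroblast list had a median of -0.29, with 13 of 23 members negative, against 53.4% of all genes. Of these, 10 were lower at an unadjusted p under 0.05, against 4.14% of all genes. That count ran from 6, without PCB 52 rat 15, 19 or 23, to 12, without sham rat 11, and the median from -0.37 to -0.18, without sham rats 11 and 9. Pi16, which marks progenitors at the base of the lineage (NCBI gene 294312, chromosome 20), was at 160.2, 280.2, 137, 123 and 170.1 CPM in PCB 52 rats 13, 15, 17, 19 and 23, against 197 to 585 CPM with a median of 336 CPM in sham rats. PCB 52 rats 13, 17, 19 and 23 lay below every sham rat and rat 15 among them, and the fold change was -1.07 (SE 0.331, adjusted p = 0.685 by edgeR). Gdf10, a ligand of the bone morphogenetic protein family, had 50.1, 38.6, 47.1, 48.4 and 50.3 CPM in PCB 52 rats 13, 15, 17, 19 and 23, against 39.6 to 105 CPM with a median of 71.6 CPM in sham rats. Only sham rat 1 fell within the PCB 52 range of Gdf10, and the fold change was -0.64 (SE 0.198). Igf2, a fetal growth factor, had a fold change of -1.14 (SE 0.403), with 69.4 CPM in PCB 52 rat 13 and 21.9 to 29.6 CPM in the other PCB 52 rats. The list's sum did not follow its median: it was 15694 to 20407 CPM in PCB 52 rats and 12950.2 to 21202 CPM in sham rats, and most of it was Gsn, with a fold change of 0.08 (SE 0.155).

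Extracellular matrix genes had a median of -0.28, with 19 of 27 members negative, against 53.4% of all genes, 6 of these at an unadjusted p under 0.05, against 4.14%, and 1 member higher at that level, against 2.72%. Col1a2, a chain of fibrillar collagen (NCBI gene 84352, chromosome 4), had 3667, 2569, 2778, 3229.6 and 2739.5 CPM in PCB 52 rats 13, 15, 17, 19 and 23, against 2226 to 7949.6 CPM with a median of 5396 CPM in sham rats. Sham rat 1 was the lowest library of all 11, and the fold change was -0.76 (SE 0.266, adjusted p = 0.685 by edgeR). Loxl1, which cross-links elastin, had 87.9, 112, 82.1, 61.1 and 74.0 CPM in PCB 52 rats 13, 15, 17, 19 and 23, against 80.8 to 248 CPM with a median of 189 CPM in sham rats, and a fold change of -1.08 (SE 0.3). Dcn, the collagen-binding proteoglycan decorin, had one of -0.73 (SE 0.249). The member that was higher at an unadjusted p under 0.05 was Thbs1, thrombospondin, with 17.4, 106, 37.5, 39.7 and 61.9 CPM in PCB 52 rats 13, 15, 17, 19 and 23, against 9.38 to 42.1 CPM with a median of 20.9 CPM in sham rats. Without sham rat 1, 10 matrix members were lower at an unadjusted p under 0.05 and the median was -0.37. Without PCB 52 rat 13 and sham rat 11 together the count was 6 and the median -0.28. Over all genes, in either direction, the count was 1263 and 1400 in these 2 fits, against 780 with all libraries. The median was -0.17 without sham rat 9.

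Chemokine and cytokine genes had 14 of 19 members negative, against 53.4% of all genes, and 7 of them lower at an unadjusted p under 0.05, against 4.14%, with a median of -0.28. Ccl21, which draws dendritic cells and T cells to lymphatic vessels (NCBI gene 298006, chromosome 5), was at 24.6, 8.14, 1.16, 12.5 and 42.5 CPM in PCB 52 rats 13, 15, 17, 19 and 23, against 17.2 to 480.4 CPM with a median of 100.3 CPM in sham rats. The 480 CPM belonged to sham rat 7, and sham rat 1 had the lowest sham value. The fold change was -3.12 (SE 0.962, adjusted p = 0.685 by edgeR) and ranged from -4.55 to -2.33 over the alternatives. Ccl21 has near-identical copies in the mouse, and whether the counting split its reads between copies here was not tested. Cxcl14 and Ccl5 were likewise highest in sham rat 7, at 87.7 and 18.8 CPM, and had fold changes of -1.37 (SE 0.476) and -0.88 (SE 0.331). Without that rat their fold changes were -0.85 and -0.48, and the list's median was -0.16, with 6 members lower at an unadjusted p under 0.05. The median was -0.12 without PCB 52 rat 13, -0.42 without PCB 52 rat 23 and -0.16 without sham rat 9, and 3 members were lower at that level without PCB 52 rat 19 and 4 without PCB 52 rat 15 or 17 or sham rat 5 or 9.

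Vascular lists were mixed. Of 15 mural and smooth muscle genes, 4 were lower and 1 higher at an unadjusted p under 0.05, against 4.14% and 2.72% of all genes (median -0.20). The median was -0.36 without PCB 52 rat 13, -0.09 without PCB 52 rat 17, -0.31 without sham rat 7 and -0.07 without sham rat 11. Tagln, an actin-binding protein of smooth muscle (NCBI gene 25123, chromosome 8), had 68.1, 60.8, 68.5, 64.6 and 71.6 CPM in PCB 52 rats 13, 15, 17, 19 and 23, against 73.7 to 122 CPM with a median of 85.1 CPM in sham rats. Its groups did not overlap, and the fold change was -0.42 (SE 0.13, adjusted p = 0.685 by edgeR). Acta2, smooth muscle actin, had a fold change of -0.53 (SE 0.159) and Des, the filament protein desmin, one of -0.43 (SE 0.15). Of 19 endothelial genes only Plvap, a protein of capillary fenestrations, had an unadjusted p under 0.05, against 6.86% of all genes. Its fold change was -0.82 (SE 0.256), Cldn5 and Pecam1 were at -0.51 and -0.23, and the list's median was -0.09. Without sham rat 11, 6 endothelial members were lower at that level, and 2 without PCB 52 rat 13 or sham rat 1 or 7. Over all genes, in either direction, the count was 1172 without sham rat 11, against 780 with all libraries. The Cldn5 value was -0.29 without sham rat 7.

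Immediate early genes, which cells switch on within minutes of a stimulus, had 22 of 24 members negative, against 53.4% of all genes, 3 of them at an unadjusted p under 0.05, against 4.14%, and a median of -0.33. That count was 10 without sham rat 11, 9 without PCB 52 rat 23 and 7 without sham rat 1. It was 6 without sham rat 7 or 9 and 1 without sham rat 3 or PCB 52 rat 17. Over all genes, in either direction, the count was 1172 without sham rat 11, 549 without PCB 52 rat 23 and 1263 without sham rat 1. It was 780 with all libraries. Fos, a subunit of the transcription factor AP-1 (NCBI gene 314322, chromosome 6), had 30.9, 34.7, 14.8, 29.6 and 34.6 CPM in PCB 52 rats 13, 15, 17, 19 and 23, against 33.5, 151, 119, 54.6, 29.9 and 33.1 CPM in sham rats 1, 3, 5, 7, 9 and 11. Sham rats 3, 5 and 7 lay above every PCB 52 rat, and sham rats 1, 9 and 11 lay among them. Its fold change was -1.28 (SE 0.485, adjusted p = 0.689 by edgeR), that of the nuclear receptor Nr4a1 -0.91 (SE 0.306; -0.59 without sham rat 3) and that of Jund -0.32 (SE 0.121).

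Lipid and glucose genes do the core work of the adipocyte. None of 18 mature adipocyte genes and none of 21 fatty acid and triglyceride synthesis genes had an unadjusted p under 0.05, with medians of 0.09 and 0.14. Without PCB 52 rat 13, 2 adipocyte and 3 synthesis members were higher at that level, and without sham rat 1, 2 and 4 were. Without sham rat 11, 2 adipocyte members were lower, 9 of 18 were positive and the median was 0.015. Over all genes, the count was 1226 without PCB 52 rat 13, 1263 without sham rat 1 and 1172 without sham rat 11. It was 780 with all libraries. Srebf1, a regulator of fatty acid synthesis, and Lpin1 and Gpam, which build triglycerides, had fold changes of 0.45 (SE 0.227), 0.60 (SE 0.291) and 0.50 (SE 0.237). Adrb3, the adrenergic receptor that triggers lipolysis (NCBI gene 25645, chromosome 16), had 41.1, 384, 361, 353 and 311 CPM in PCB 52 rats 13, 15, 17, 19 and 23, against 332, 149, 136, 90.3, 118 and 30.8 CPM in sham rats 1, 3, 5, 7, 9 and 11. The 4 other PCB 52 rats were near or above sham rat 1, while PCB 52 rat 13 lay below 5 of the 6 sham rats. The fold change was 1.02 (SE 0.609), and over the alternatives it ran from 0.81 to 1.47. Among 18 lipolysis genes, Abhd5, which activates the triglyceride lipase, was the only member with an unadjusted p under 0.05, against 6.86% of all genes. Its fold change was 0.33 (SE 0.137), and the list median was 0.13. The lipolysis median was 0.05 without sham rat 11, and 4 members were higher at that level without PCB 52 rat 13.

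Cholesterol synthesis had 17 of 23 members positive, against 46.6% of all genes, and a median of 0.12. Insig1, which restrains the pathway, was at 0.40 (SE 0.177) and Lss, lanosterol synthase, at 0.35 (SE 0.159). These 2 were the members higher at an unadjusted p under 0.05, against 2.72% of all genes. The median was 0.34 without sham rat 11 and -0.02 without PCB 52 rat 13. Insulin and glucose handling had 17 of 23 positive, against 46.6% of all genes, and a median of 0.20. Hk2, a hexokinase, was at 0.54 (SE 0.28) and Pygm, a glycogen phosphorylase, at -0.64 (SE 0.278). Genes of mitochondrial fatty acid oxidation had a median of 0.05. The respiratory chain had 26 of 33 members negative, against 53.4% of all genes, and a median of -0.15, which was 0.05 without sham rat 7.

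All 34 genes of the cytosolic ribosome had a negative fold change, with a median of -0.43, and none had an unadjusted p under 0.05. Rplp0, a protein of the ribosomal stalk (NCBI gene 64205, chromosome 12), had 1062, 979, 1009.5, 912 and 928 CPM in PCB 52 rats 13, 15, 17, 19 and 23, against 942, 1048, 1283, 3185, 1028 and 1008 CPM in sham rats 1, 3, 5, 7, 9 and 11. Sham rat 7 alone was high. Without it the median of the list was -0.003, with 17 members positive and 17 negative.

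**Figure D4:**
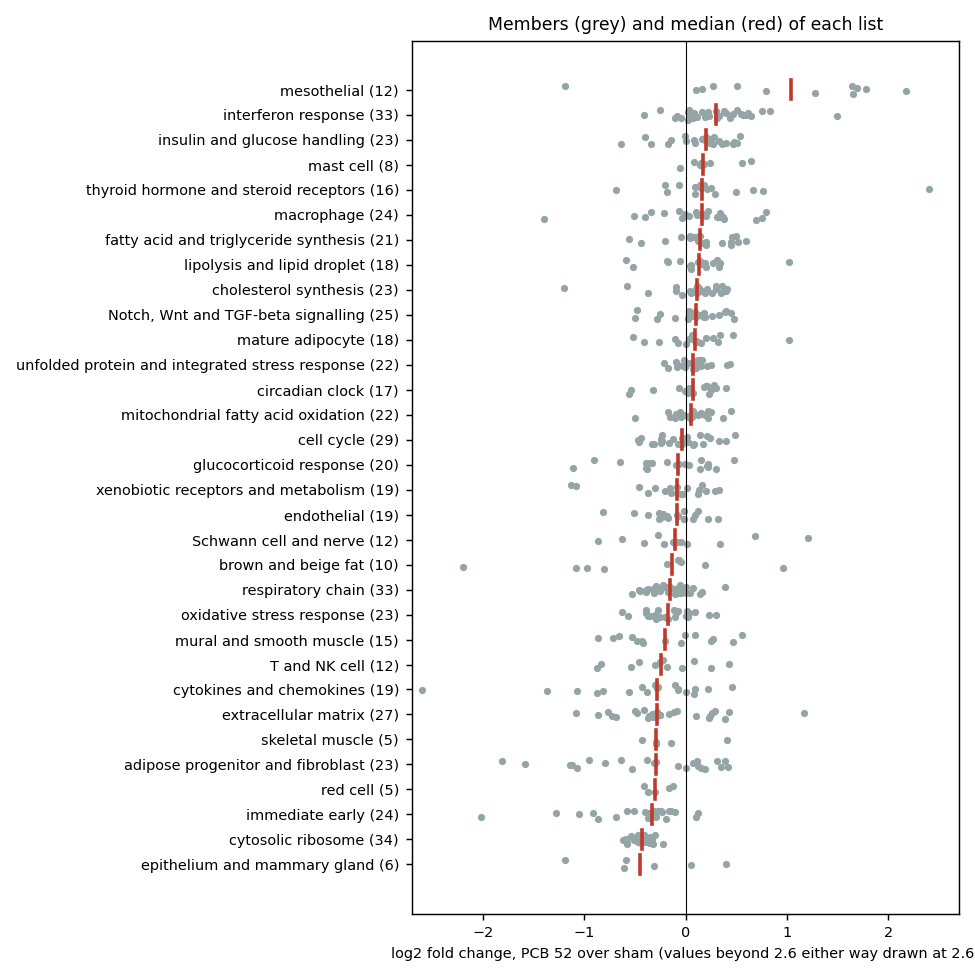
Log2 fold change, PCB 52 over sham (horizontal axis), of each tested member (grey points) and the median (red bar) of the gene lists with at least 5 tested members, whose names and tested numbers stand on the vertical axis. Mesothelial genes have the highest median, 1.04, and the epithelium and mammary gland list and the 34 cytosolic ribosome genes the lowest, -0.45 and -0.43.

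Genes that sense and clear foreign chemicals were followed next. Cyp1a1, the classical target of the aryl hydrocarbon receptor, had at most 4 counts in any library and was not tested. The receptor Ahr had a fold change of -0.08 (SE 0.154), its target Cyp1b1 -0.02 (SE 0.208), Nqo1, a quinone reductase, -0.20 (SE 0.212), and Por, the electron donor of cytochrome P450 enzymes, 0.20 (SE 0.206). Cyp2b1, a target of the receptor CAR that ortho-chlorinated biphenyls induce in rat liver, was at 0.12, 3.62, 3.78, 0 and 11.8 CPM in PCB 52 rats 13, 15, 17, 19 and 23, against 0.407 to 34.8 CPM with a median of 2.97 CPM in sham rats. The sham maximum was rat 5, and the fold change of -1.08 had an SE of 1.26. Of 19 members tested in the xenobiotic list, 1 had an unadjusted p under 0.05, against 6.86% of all genes. It was Gsta1, a glutathione transferase with close paralogs that could share its reads. Gsta1 had 169.8, 199, 169.7 and 265 CPM in PCB 52 rats 15, 17, 19 and 23, against 172 to 1025 CPM with a median of 291 CPM in sham rats. Sham rat 11 was the highest, and the fold change was -1.13 (SE 0.45), with a range of -1.29 to -0.35 over the alternatives. It was -0.49 with the reads of PCB 52 rat 13 counted, so that rat lay above the mean of the other PCB 52 rats. Its own value is not given here. In that fit no xenobiotic member had an unadjusted p under 0.05. In the oxidative stress list, 16 of 23 members were negative, against 53.4% of all genes, and the median was -0.18, or -0.07 without sham rat 7, -0.04 without sham rat 11 and -0.29 without PCB 52 rat 13; Hmox1, heme oxygenase, and Txn1, thioredoxin, had fold changes of -0.63 (SE 0.208) and -0.56 (SE 0.236), the Txn1 value being -0.31 without sham rat 7.

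Among endocrine genes, Star, which brings cholesterol into mitochondria for steroid synthesis (NCBI gene 25557, chromosome 16), was at 3.36, 22.1, 89.3, 57.7 and 22.1 CPM in PCB 52 rats 13, 15, 17, 19 and 23, against 1.17 to 22.5 CPM with a median of 4.42 CPM in sham rats. PCB 52 rats 13, 15 and 23 lay in the sham range and rats 17 and 19 above it. The highest sham value, 22.5 CPM, was rat 1. The fold change was 2.40 (SE 0.835, adjusted p = 0.685 by edgeR). Akr1c14, a hydroxysteroid dehydrogenase, had a fold change of -0.69 (SE 0.227), with sham rat 1 at 118 CPM below the 223 to 262 CPM of the other sham rats. Esr1, the estrogen receptor alpha, had one of 0.77 (SE 0.392), Nr3c1, the glucocorticoid receptor, 0.30 (SE 0.177), and Thrsp, a thyroid hormone target of lipid synthesis, -0.20 (SE 0.215). Over 16 thyroid and steroid genes the median was 0.16, and over 20 glucocorticoid response genes -0.08 (-0.15 without PCB 52 rat 13 and 0.01 without PCB 52 rat 15), where Cebpd and Errfi1 were at -0.91 (SE 0.269) and -0.65 (SE 0.191).

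Among hormones made by fat, Lep, leptin, overlapped between the groups and was at 730.2 to 1185 CPM in PCB 52 rats and 776 to 1238 CPM in sham rats (-0.10, SE 0.167), Retn, resistin, had a fold change of -0.41 (SE 0.271), and Adipoq one of 0.10 (SE 0.173). Nampt, an enzyme of NAD synthesis also secreted by fat, was at 0.43 (SE 0.212). Of 27 genes of adipose function and chemical metabolism that were always followed, 24 were tested, 14 with a positive and 10 with a negative value from -1.08 to 0.77. Of the 24, 1 had an unadjusted p under 0.05, against 6.86% of all genes. The Retn value was -0.21 without sham rat 7, and the Nampt value 0.27 without PCB 52 rat 17. Slc2a4, the insulin-responsive glucose transporter, and Fasn, fatty acid synthase, had fold changes of 0.001 (SE 0.195) and 0.45 (SE 0.357), and without PCB 52 rat 17 Fasn was at 0.10. Pparg, the master regulator of fat cells, was at 0.03 (SE 0.187), and Cebpa, its partner, at 0.07 (SE 0.183). The lipases Lpl, Pnpla2 and Lipe were at 0.09, 0.12 and 0.21, and the secreted proteins Cfd, Rbp4 and Apln at -0.07, 0.13 and -0.13. Hsd11b1, which regenerates glucocorticoid, was at -0.18 (SE 0.188), and Dio2, the deiodinase that activates thyroid hormone, had at most 5 counts.

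Stress, growth and timing genes were followed as well. Atf6 and Xbp1, factors of the unfolded protein response, had fold changes of 0.44 (SE 0.177) and 0.41 (SE 0.168) within a list median of 0.08. In the cell cycle list (median -0.03), Tyms, thymidylate synthase, did not overlap between the groups, with 18.98, 17.3, 20.6 and 14.6 CPM in PCB 52 rats 15, 17, 19 and 23, against 11.7 to 14.4 CPM with a median of 12.5 CPM in sham rats, while E2f1 was at -0.47 (SE 0.192). The Notch, Wnt and TGF-beta list had 20 of 25 members positive, against 46.6% of all genes, and a median of 0.11, or 0.02 with 13 positive without sham rat 7. Tgfbr2, a receptor of transforming growth factor beta, was at 0.48 (SE 0.163) and Heyl, a Notch target, at -0.50 (SE 0.216). The circadian list had a median of 0.07 and no member at an unadjusted p under 0.05. Lists of cells that could be admixed were small in what could be tested: red cells had a median of -0.30 over 5 genes, skeletal muscle -0.29 over 5, nerve -0.10 over 12, mast cells 0.17 over 8, neutrophils 0.50 over 4, B and plasma cells -0.26 over 2, pancreas, liver and gut 0.21 over 3, brown fat -0.13 over 10 and epithelium -0.45 over 6. The epithelium median was -2.94 without PCB 52 rat 13 and 2.20 without sham rat 11.

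**Figure D5:**
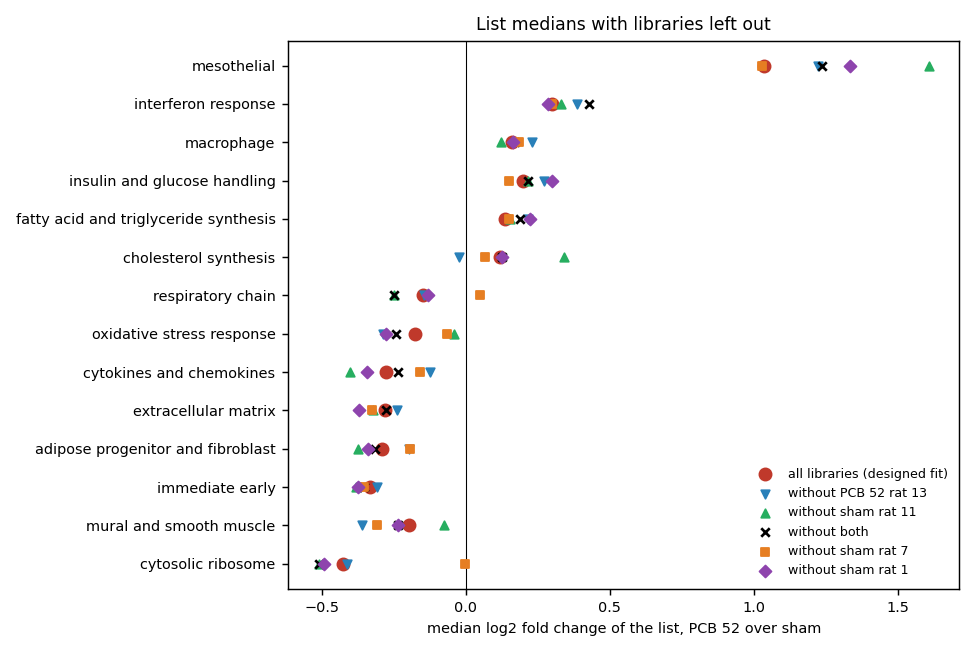
Median log2 fold change, PCB 52 over sham (horizontal axis), of 14 gene lists (vertical axis) with all libraries as tested and with libraries left out (symbols). The ribosome median moves from -0.43 to -0.003 without sham rat 7, and the mesothelial median lies between 1.03 and 1.61 in the fits drawn.

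The VAT of even-numbered rats, labelled female, 6 PCB 52 and 6 sham, was the comparison most like this one. Its own test called 0 of 11143 genes (edgeR, 0%; 1066 at an unadjusted p under 0.05, 9.57%), and the test of the difference, odd minus even, called 0 of 11673 (0%), with 1331 at an unadjusted p under 0.05 (11.4%). DESeq2 called 18 genes for that difference, and edgeR 4 without sham rat 1. The 6 genes of smallest p for the difference were Bmyc, Galnt16, Slc35g3, Vegfd, Srpx2 and Duoxa1, all with an adjusted p of 0.369. Vegfd, a growth factor of lymphatic vessels, had 21.3, 19.9, 25.9 and 17.97 CPM in PCB 52 rats 15, 17, 19 and 23, against 20.8 to 70.4 CPM with a median of 53.3 CPM in sham rats in the odd-numbered animals. Sham rats 1 and 11 were the low ones, and the fold change was -1.18 (SE 0.314), against 0.47 (SE 0.186) in even-numbered rats. Galnt16 was at -1.04 (SE 0.231) and 0.42 (SE 0.201) in the same order, Srpx2 at -1.48 (SE 0.409) and 0.58 (SE 0.231), and Duoxa1 at -0.97 (SE 0.267) and 0.41 (SE 0.184). Of the 24 leading genes, 21 were tested in even-numbered rats, 12 with the same sign, and Sntb1 alone had an unadjusted p under 0.05 there, with a fold change of 0.38 (SE 0.143). The even-numbered rats also began exposure at another age, so sex and age cannot be told apart.

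In brown and subcutaneous fat of odd-numbered rats, where edgeR called 0 of 10687 and 0 of 11459 genes, the leading VAT genes were at other values. Arhgap28 had a fold change of -0.21 (SE 0.211) in brown and 0.54 (SE 0.353) in subcutaneous fat. Nr1h4 was at -0.87 (SE 0.280) in brown fat, the 1 of 22 leading genes tested there with an unadjusted p under 0.05. Bmyc was at 1.48 (SE 0.667) in subcutaneous fat, the 1 of 20 tested there. The share of all genes at that level in these depots is not given here. Chance alone passes about 1 gene in 20 at that level, so these counts do not set the leading genes apart. The fold changes stand side by side, and the difference between depots was not tested.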

How the data were processed

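RNA was sequenced from about 100 mg of tissue per rat, from samples with an RNA integrity number of at least 8, after poly(A) capture or rRNA removal, per the labels' protocols, which do not say which. Reads were aligned to rn6 with HISAT2 and inspected with FastQC, per the submitters' processing notes; the counting program, annotation and strand setting are not stated, so genes that overlap on opposite strands cannot be told apart. The authors deposited a table of counts per gene and library for each tissue and sex. The table of even-numbered VAT rats was treated as estimated counts as deposited by the authors, because spreadsheet summary lines below its genes are partly not whole; those lines were dropped, and every gene line holds whole numbers. Of 15319 gene lines, 15230 matched a RefSeq entry (GRCr8, used for symbols, chromosomes and promoters only).

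Differences in counts came from edgeR 4.0.16, run in R 4.3.3, with TMM scaling, its default expression filter and a robust quasi-likelihood test, and p-values were adjusted by Benjamini-Hochberg (threshold 0.05). Genes of chromosomes 9, X and Y, the mitochondrion and unplaced or unmatched sequence, 796 of 11368, were fitted without PCB 52 rat 13, and 1 adjustment covered both fits; the median SE was 0.182. DESeq2 1.42.0, limma 3.58.1 voom, other scalings and filters, and libraries left out were alternatives. The difference between odd- and even-numbered rats was the sex-by-treatment term over 4 VAT groups. The procedures were tested on simulated data. Genes named are the 12 of smallest p in each direction, up to 3 members of smallest p from each list, 27 genes of adipose function and chemical metabolism, and 6 genes for the difference; those chosen after their values were seen are said to be, and some genes the rule names are not reported here. The members and the 36 gene lists were chosen with earlier results of these data known. Intervals and floors cover counting error only.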

Additional observations from a re-analysis of the deposited data

Results flagged for a closer look

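Among 232 sets of values, each a gene or a marker sum in 1 group, 38 values lay farther from the rest of their group than Dixon's 95% limit allows. For independent, normally distributed values chance gives about 1 set in 20. CPM were used without a log scale and the sets share libraries, so that rate need not hold here. Of the 38, 8 were in PCB 52 rat 13, 6 in PCB 52 rat 17, 7 in sham rat 1, 7 in sham rat 7 and 5 in sham rat 11, and none was in PCB 52 rat 23.

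In PCB 52 rat 13, Adrb3 was at 41.1 CPM, Rspo1 at 25.8 CPM, Nr3c1 at 171 CPM and Pnpla2 at 7577 CPM, all below the other 4 rats. In the same rat Lss was at 93.0 CPM, Igf2 at 69.4 CPM, Cdh1 at 119 CPM and the epithelial and mammary gland markers summed to 638 CPM, all above them. In PCB 52 rat 17, Insig1 at 789.6 CPM, Apln at 25.3 CPM, Fasn at 5080.0 CPM, Thrsp at 3857 CPM and the neutrophil sum of 379 CPM were high, and Fos at 14.8 CPM was low. Gdf10 was low in PCB 52 rat 15 at 38.6 CPM, and Adgre1 in PCB 52 rat 19 at 33.2 CPM.

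In sham rat 1, Rcan2 at 74.8 CPM, Star at 22.5 CPM, Cldn15 at 17.2 CPM and Gpm6a at 52.8 CPM were high and Akr1c14 at 118 CPM was low, each towards or into the range of PCB 52 rats. Its neutrophil markers summed to 542 CPM and its pancreas, liver and gut markers to 207 CPM, both high. In sham rat 7, Rplp0 at 3185 CPM, Ccl21 at 480.4 CPM, Cxcl14 at 87.7 CPM, Ccl5 at 18.8 CPM, Nkg7 at 11.6 CPM and Txn1 at 258 CPM were high, and Lss at 36.7 CPM was low. In sham rat 11, Cdh1 at 365 CPM, the male tract sum of 2173 CPM, the epithelial sum of 1163 CPM, Slc35g3 at 1.90 CPM and Ppp2r2c at 2.34 CPM were high. Errfi1 at 232 CPM and Nr4a1 at 59.6 CPM were high in sham rat 3, and Cyp2b1 at 34.8 CPM in sham rat 5.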

How the results depend on the processing

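Across 22 alternatives, 2206 of 2237 values of the 102 genes followed kept their direction, and 698 of 704 list medians moved by less than the members' median SE. That is a wide limit, as the SE is that of single genes, with a median of 0.182 over all genes tested. Many list medians are smaller, so they could change sign within it. As given above, 27 of 36 lists moved by over 1.5 times or changed sign without 1 library that stood apart. With all libraries edgeR called 0 genes, DESeq2 7 and limma voom 1, and leaving out 1 library gave 0 to 8, the 8 without sham rat 1. For the difference between odd- and even-numbered rats edgeR called 0 and DESeq2 18, and leaving out 1 library gave 0 to 4, the 4 also without sham rat 1. The cause was not tested.

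Of 153 genes that the naming rule picks, 14 changed sign under at least 1 alternative, 10 of them among the 102 described. With 1 library left out, the other 4, Gk, Prm1, Alb and Cela2a, ran from -0.948 to 0.0192, -2.93 to 0.733, -0.0320 to 0.782 and -0.108 to 0.361, and the 10 are as follows. With 1 library left out at a time, the log2 fold change ran from -3.68 to 3.10 for Cdh1, -0.00148 to 0.156 for Adipoq, -0.191 to 0.0772 for Cfd, -0.0740 to 0.304 for Rbp4 and -0.0861 to 0.106 for Pparg. It ran from -0.0328 to 0.179 for Cebpa, -0.121 to 0.0753 for Slc2a4, -0.116 to 0.101 for Cyp1b1 and -2.12 to 0.454 for Cyp2b1. Without PCB 52 rat 13 and sham rat 11 together, Cdh1 was at 0.588, Pparg at -0.0204, Cebpa at -0.00323 and Slc2a4 at -0.116. Slc2a4 was at -0.00104 with DESeq2 size factors and in DESeq2. The other 2 alternatives were chosen after seeing the data. Without PCB 52 rats 13 and 23 and sham rat 11, Slc2a4 was at -0.0107 and Cyp1b1 at 0.0370. Without PCB 52 rat 13 and sham rats 7 and 11, Pparg was at -0.0194, Cebpa at -0.0189, Lpl at -0.0651 and Slc2a4 at -0.107.

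With 1 library left out, the cholesterol median ran from -0.02 to 0.34, the ribosome median from -0.51 to -0.003 and the epithelial median from -2.94 to 2.20. The ribosome median was -0.04 without PCB 52 rat 13 and sham rats 7 and 11, and the epithelial median was -4.16 without PCB 52 rats 13 and 23 and sham rat 11. No paired analysis was possible because the groups compared share no rat numbers. With 5 and 6 libraries, genes near the floor of 3 counts carry wide errors.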
